A study of Mus musculus with 4 samples.

Results

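The mitochondrial carrier family comprises the genes named Slc25a followed by a number, together with the uncoupling proteins Ucp1, Ucp2 and Ucp3. Members were taken by symbol alone, from the gene names of the deposited tables, by a rule that does not use their values. Earlier results of these data were known when the rule was chosen. The rule found 50 of the 23852 gene names in any table. Of these, 49 were in all 4 tables, 42 passed the filter on low values (at least 1 FPKM in at least 2 libraries) and were tested, 7 were below it, and Slc25a44 was missing from 1 table as a gene of its own. FPKM scales fragments by transcript length and by the mapped fragments of the library, so levels of different genes can be compared per length.

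The libraries came from kidneys of mouse embryos at E18.5 on a mixed strain background, 2 control and 2 mutant. Controls were Hnf4a c/+ and mutants Hnf4a c/c, where c is a conditional allele of the nuclear receptor gene Hnf4a, and both groups carried Six2GFPcre. This Cre is active in nephron progenitors and inherited by the nephron tubules they form, while the stroma, vessels and collecting ducts of the same kidneys come from other lineages. Controls could therefore lose 1 copy of Hnf4a in nephron cells and are not intact, and the labels name neither the animals nor any pooling, so that tests measure the spread between libraries only.

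Mitochondrial carriers are proteins of the inner mitochondrial membrane that exchange nucleotides, phosphate, amino acids, carboxylic acids and cofactors between the cytosol and the mitochondrial matrix. The proximal tubule, the segment whose maturation depends on Hnf4a, is rich in mitochondria, burns fatty acids, and makes glucose and arginine. Burning fatty acids and making glucose need metabolites to cross this membrane. Whole kidneys were sampled, so fewer cells of a type and less RNA per cell cannot be told apart.

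The 4 tables gave 13552 to 13646 named genes at 1 FPKM or more and no read totals, so depth is unknown. Hnf4a stood at 89.3 and 84.6 FPKM in control and at 87.1 and 78.5 FPKM in mutant libraries, a value over the whole gene that does not check the deletion. Xist was at 0.0789 and 0.131 FPKM in replicate 1 and at 81.0 and 74.0 FPKM in replicate 2 of control and mutant, so the replicate number also separates the Xist pattern. With limma, fitted to log2(FPKM + 1), 21 of 13287 genes had an adjusted p under 0.05, which is 0.158%. Every log2 change below is on this scale, mutant minus control, where the added 1 shrinks differences between low values.

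No mitochondrial carrier passed the threshold in either direction, and the lowest adjusted p among the 42 was 0.283, that of the dicarboxylate carrier gene Slc25a10. The median change was -0.03, beside 0.02 over all genes tested, with 24 negative and 18 positive changes between -0.61 and 0.48. At an unadjusted p under 0.05, 5 members were lower in the mutant libraries (Slc25a1, Slc25a10, Slc25a21, Slc25a28 and Slc25a42), 11.9% of those tested beside 4.57% of all genes. In the same way 1 member, Slc25a14, was higher, 2.38% beside 2.67% of all genes. Groups did not overlap in 12 members that were lower (28.6%, beside 17.1% of all genes) and in 8 that were higher (19%, beside 22.7%). The count of lower members at an unadjusted p under 0.05 fell when either mutant library was left out and rose when either control library was left out. The count of higher members was 0 without control replicate 1 or without mutant replicate 1, and 2 without control replicate 2. An exact permutation test of 2 against 2 libraries cannot go below a two-sided p of 0.333 for any single gene.

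The limma 95% interval of the change, not adjusted for the number of genes, lay within 1 of 0 for 36 of the 42 members. It reached beyond for Slc25a21, Slc25a34, Slc25a38, Slc25a40, Slc25a42 and Slc25a53. Summed over the 49 members, the family held 1471 and 1474 FPKM in control and 1412 and 1377 FPKM in mutant libraries. Both mutant sums were below both control sums, and the mean was 1472 in control and 1395 in mutant libraries. The ADP/ATP carriers Slc25a4 and Slc25a5 and the phosphate carrier Slc25a3 made up 37.0% and 37.8% of it in control and 38.6% and 36.9% in mutant libraries.

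**Figure D1:**
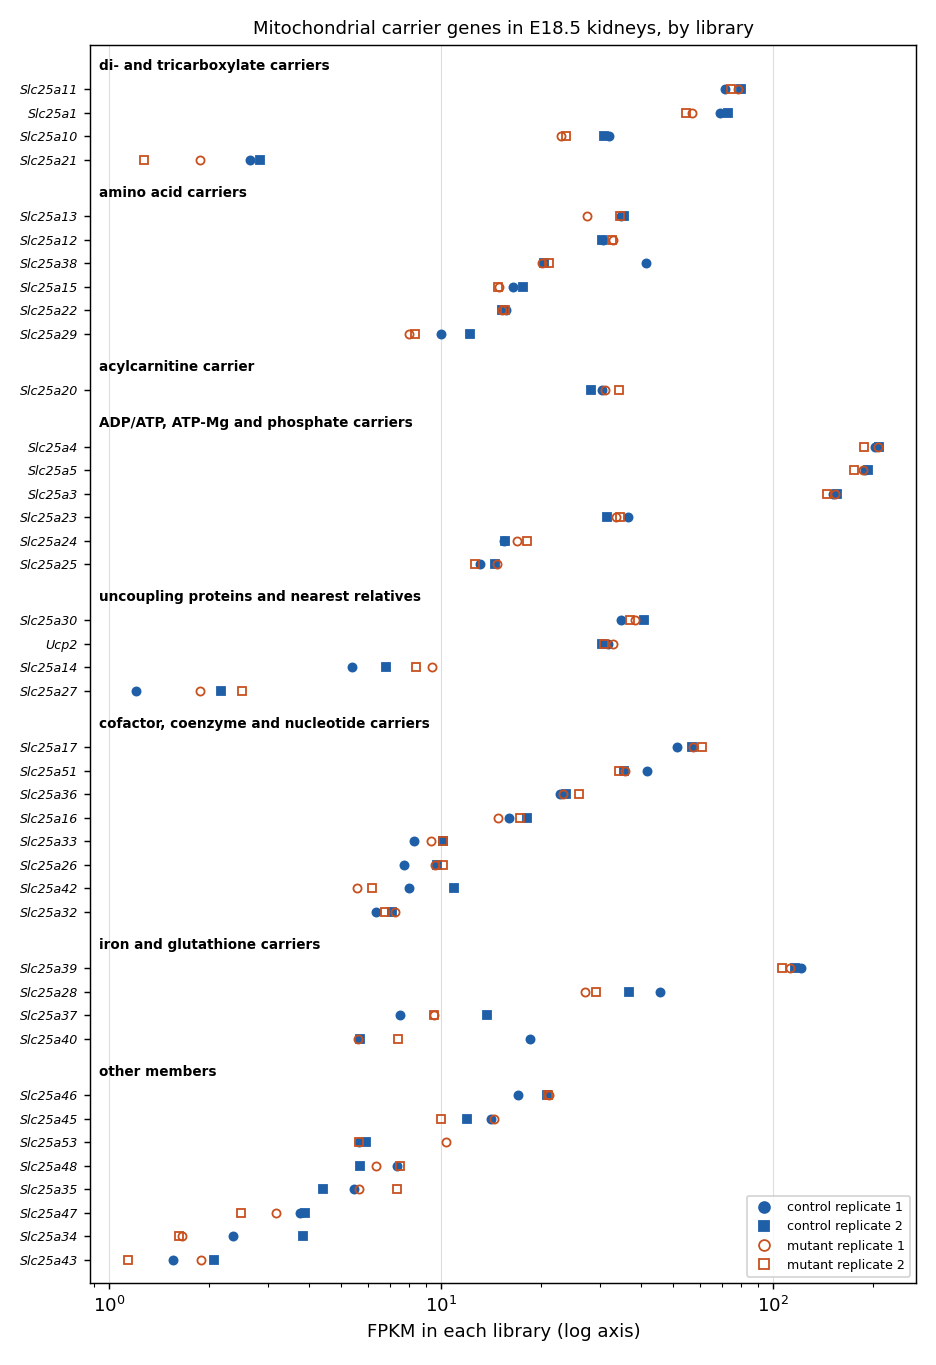
FPKM (log axis) of tested mitochondrial carrier genes in each of the 4 libraries, grouped by substrate and ordered by mean level. Filled blue symbols are control and open orange symbols mutant libraries (circles replicate 1, squares replicate 2). Slc25a1, Slc25a10 and Slc25a28 lie apart by group, whereas Slc25a38 and Slc25a40 are spread by control replicate 1 alone.

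Among carriers of di- and tricarboxylates, 3 of 4 members were lower in both mutant libraries (75%, beside 17.1% of all genes). Each had an unadjusted p under 0.05 (75%, beside 4.57% of all genes lower), and none passed the adjusted threshold. The class is small and was drawn up with earlier results of these data known. Slc25a10 encodes the dicarboxylate carrier, which exchanges malate and succinate for phosphate. It was at 31.9 and 30.9 FPKM in control and at 22.9 and 23.7 FPKM in mutant libraries. The control libraries differed by about as little as the mutant libraries did, and the groups were apart. The mutant mean was 74.1% of control (31.4 ± 0.692 against 23.3 ± 0.577 FPKM, where ± is the SD of n = 2 libraries), and the log2 change was -0.42 (SE 0.08, limma adjusted p = 0.283).

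Slc25a1 encodes the citrate carrier, which exports citrate to the cytosol. It was at 69.2 and 72.9 FPKM in control and at 57.0 and 54.7 FPKM in mutant libraries, again without overlap. The mean was 71.1 ± 2.58 in control and 55.9 ± 1.61 FPKM in mutant libraries, with a log2 change of -0.34 (SE 0.07, limma adjusted p = 0.325). Slc25a21, the carrier of oxodicarboxylates such as oxoadipate from lysine breakdown, was low throughout, at 2.65 and 2.83 FPKM in control and 1.87 and 1.27 FPKM in mutant libraries. Its log2 change was -0.55 (SE 0.20, limma adjusted p = 0.666). The fourth member stood apart from these. Slc25a11, the oxoglutarate carrier of the malate-aspartate shuttle, was the most abundant of the class and had overlapping groups, at 71.7 and 79.8 FPKM in control and 78.3 and 74.6 FPKM in mutant libraries. Its log2 change was 0.01, with a 95% interval from -0.21 to 0.24.

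In mm9 the Slc25a10 locus spanned bases 120353151 to 120362475 of chromosome 11 in all 4 tables. The Slc25a1 locus on chromosome 16 ended at 17928312 in all of them and started at 17925208 in control replicate 1, 17925207 in mutant replicate 1 and 17925304 in both replicates 2, so that its start moved with the replicate number and not with genotype. Neither locus overlapped another named gene.

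The promoter windows of this pair are shown because they had the lowest p-values of the family. They run from 250 bases before to 50 after the start, from RefSeq on GRCm38.p6, a later build than that of the tables, at chr11:120491587-120491886 (plus strand) and chr16:17928170-17928469 (minus strand). The third window, that of the aspartate/glutamate carrier gene Slc25a12 at chr2:71367706-71368005 (minus strand), is shown because it is 1 of 2 member windows with letters of an HNF4-type site. The single capital marks the transcript start in the first 2 sequences, and the capitals of the last mark the motif.
Slc25a10: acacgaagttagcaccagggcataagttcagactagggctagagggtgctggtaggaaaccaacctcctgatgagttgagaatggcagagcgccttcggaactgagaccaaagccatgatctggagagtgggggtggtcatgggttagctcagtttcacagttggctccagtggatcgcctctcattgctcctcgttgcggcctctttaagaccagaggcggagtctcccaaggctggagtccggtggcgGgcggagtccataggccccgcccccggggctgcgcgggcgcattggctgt
Slc25a1: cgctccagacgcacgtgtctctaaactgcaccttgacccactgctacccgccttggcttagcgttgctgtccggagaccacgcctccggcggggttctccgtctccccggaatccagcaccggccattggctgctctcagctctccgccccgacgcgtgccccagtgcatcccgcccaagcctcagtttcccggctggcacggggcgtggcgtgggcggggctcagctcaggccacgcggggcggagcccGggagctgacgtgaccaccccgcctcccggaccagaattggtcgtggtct
Slc25a12: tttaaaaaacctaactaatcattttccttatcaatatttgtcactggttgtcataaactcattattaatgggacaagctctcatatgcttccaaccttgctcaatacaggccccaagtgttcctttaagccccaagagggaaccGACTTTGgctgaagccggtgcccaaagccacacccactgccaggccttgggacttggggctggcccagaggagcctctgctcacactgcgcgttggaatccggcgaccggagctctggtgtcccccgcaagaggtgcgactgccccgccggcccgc

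RefSeq windows were found for 39 of the 50 members (49 windows). HNF4A binds repeated half-sites, and 3 short forms were searched on both strands. CAAAGTCCA was in 0 of the 49 member windows and in 0.475% of all 32851 windows, and CAAAGGTCA in 0 member windows and 0.478% of all. The shorter CAAAGTC, which the first of these contains, was in 2 member windows, those of Slc25a12 and of the glutamate carrier gene Slc25a22, and in 4.44% of all windows. Slc25a12 carried it on the opposite strand, 106 bases before the start, and Slc25a22 on the same strand, 70 bases before it. The log2 changes of these genes were 0.10 and -0.01. The start of the Slc25a12 window was a transcript start at base 71367755, whereas the RefSeq gene start was at 71367781, so its distance is from that transcript start only. A match of letters is a description of the window and not a binding site, and its absence says only that these letters are not in it.

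Among amino acid carriers, 0 of 6 tested members passed, and the groups were apart in 3 lower members (beside 17.1% of all genes) and 1 higher one (16.7%, beside 22.7%). Slc25a15, the ornithine carrier that links the cytosolic and mitochondrial steps of ornithine and arginine metabolism, was at 16.4 and 17.6 FPKM in control and at 14.9 and 14.8 FPKM in mutant libraries. Both mutant values were below both control values, by a small margin. The mutant mean was 87.3% of control, with a log2 change of -0.18 (SE 0.10, limma adjusted p = 0.764) and a 95% interval from -0.46 to 0.09. Its locus (mm9 chromosome 8, 23486022 to 23509093) started at 23485977 in mutant replicate 1.

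Slc25a29, a carrier of basic amino acids, was at 9.96 and 12.2 FPKM in control and 7.99 and 8.30 FPKM in mutant libraries (73.7% of control, log2 change -0.39, SE 0.15, limma adjusted p = 0.697). The mutant values were close together and below both control values. The 2 aspartate/glutamate carriers, which feed aspartate to the cytosol, differed in sign. Slc25a13 (citrin) was at 34.9 and 35.6 FPKM in control and at 27.5 and 34.4 FPKM in mutant libraries, so that its change of -0.19 rested mostly on mutant replicate 1 and was -0.03 without it. Slc25a12 (aralar) was at 30.6 and 30.5 FPKM in control and 32.9 and 32.6 FPKM in mutant libraries, a change of 0.10 (SE 0.07, limma adjusted p = 0.766). The ratio of Slc25a12 to Slc25a13 was 0.877 and 0.856 in control and 1.20 and 0.947 in mutant libraries. The glutamate carrier Slc25a22 was level, at 15.7 and 15.2 against 15.2 and 15.6 FPKM. Slc25a38, a glycine carrier needed for haem synthesis, was at 41.5 FPKM in control replicate 1 and between 20.2 and 21.2 FPKM in the other libraries. The bounds of its locus differed in all 4 tables.

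The carnitine/acylcarnitine carrier gene Slc25a20, through which long-chain fatty acids enter the matrix for oxidation, was at 30.5 and 28.3 FPKM in control and at 31.0 and 34.2 FPKM in mutant libraries. The groups were just apart, with the mutant values above the control values. The mutant mean was 111% of control, and the log2 change was 0.15 (SE 0.09, limma adjusted p = 0.764), with a 95% interval from -0.11 to 0.40. It was 0.08 without mutant replicate 2, 0.09 without control replicate 2, and 0.20 and 0.21 without control or mutant replicate 1. Its locus (mm9 chromosome 9, 108564429 to 108586972) was the same in all 4 tables and overlapped no other named gene.

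Among the carriers of adenine nucleotides and phosphate were the 3 most abundant members, Slc25a4, Slc25a5 and Slc25a3, and no member of the class had an unadjusted p under 0.05. Slc25a4, the ADP/ATP carrier that is typical of heart and muscle, was at 202 and 208 FPKM in control and 206 and 188 FPKM in mutant libraries, with overlap. Slc25a5, the ADP/ATP carrier of most dividing tissues, was at 189 and 193 FPKM in control and 186 and 175 FPKM in mutant libraries, with the mutant values slightly lower. The log2 changes were -0.06 (95% interval -0.28 to 0.16) and -0.08 (-0.27 to 0.11). The phosphate carrier Slc25a3 was at 152 and 156 against 153 and 145 FPKM. The ratio of Slc25a4 to Slc25a5 was 1.07 and 1.08 in control and 1.11 and 1.07 in mutant libraries. Of the calcium-regulated ATP-Mg/phosphate carriers, Slc25a24 was at 15.4 and 15.6 FPKM in control and 16.9 and 18.1 FPKM in mutant libraries, a change of 0.17 (SE 0.10, limma adjusted p = 0.764). Slc25a23 and Slc25a25 had overlapping groups and changes of 0.01 and -0.02.

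Among the uncoupling proteins and their nearest relatives, Slc25a14 was the one member of the family that was higher at an unadjusted p under 0.05. This X-linked gene, also called UCP5, was at 5.37 and 6.82 FPKM in control and 9.37 and 8.37 FPKM in mutant libraries. The groups were apart, with the mutant mean at 146% of control, a log2 change of 0.48 (SE 0.17, limma adjusted p = 0.657). Its locus on chromosome X started at 45976658 in both control tables and at 45976657 and 45976641 in the mutant tables. Ucp2, the uncoupling protein of many tissues including leukocytes, was at 31.7 and 30.5 against 32.9 and 31.0 FPKM, with overlap and a 95% interval from -0.18 to 0.26. Slc25a30, also known as a kidney mitochondrial carrier, was at 34.7 and 40.8 against 38.2 and 36.9 FPKM. Slc25a27, or UCP4, was near the floor of the filter, between 1.20 and 2.51 FPKM. Ucp1, the heat-producing protein of brown fat, was listed at 0 in 3 libraries and at 0.0929 FPKM in control replicate 2.

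The cofactor, coenzyme and nucleotide carriers had 1 of 9 members lower at an unadjusted p under 0.05 (11.1%, beside 4.57% of all genes) and none past the adjusted threshold. This was Slc25a42, a carrier of coenzyme A, at 7.99 and 10.9 FPKM in control and at 5.56 and 6.20 FPKM in mutant libraries. The groups were apart although the control libraries differed. The mutant mean was 62.2% of control (9.45 ± 2.06 against 5.88 ± 0.453 FPKM), a log2 change of -0.59 (SE 0.19, limma adjusted p = 0.613). Slc25a17, the peroxisomal carrier of coenzyme A and related cofactors and the most abundant of the class, was at 51.4 and 57.1 FPKM in control and 57.5 and 60.9 FPKM in mutant libraries. Its mutant values were just above the control values, with a change of 0.13 (SE 0.09, limma adjusted p = 0.764). Slc25a16, Slc25a26, Slc25a32, Slc25a33, Slc25a36 and the NAD carrier Slc25a51, had overlapping groups and changes between -0.14 and 0.17.

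The pair of mitoferrins carries iron into the matrix. Slc25a28, mitoferrin 2 of non-erythroid tissues, was at 45.6 and 36.6 FPKM in control and 27.1 and 29.2 FPKM in mutant libraries. Both mutant values were lower, with the mean at 68.4% of control and a log2 change of -0.52 (SE 0.13, limma adjusted p = 0.453). The changes were -0.68 without control replicate 2 and -0.37 without control replicate 1. Slc25a37, mitoferrin 1, which supplies iron for haem in red cell precursors, was at 7.51 and 13.7 FPKM in control and 9.50 and 9.48 FPKM in mutant libraries, so that its control values enclosed the mutant values. The ratio of Slc25a28 to Slc25a37 was 6.08 and 2.67 in control and 2.85 and 3.08 in mutant libraries.

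Slc25a39 and Slc25a40 carry glutathione into mitochondria. Slc25a39 was among the 4 members at 100 FPKM or more in all libraries, at 121 and 116 FPKM in control and 113 and 106 FPKM in mutant libraries, a change of -0.12 (SE 0.07, limma adjusted p = 0.764). Its locus overlapped that of the microRNA gene Mir6930. Slc25a40 was at 18.4 FPKM in control replicate 1 and at 5.68, 5.62 and 7.40 FPKM in control replicate 2 and mutant replicates 1 and 2. Its change of -0.61, the most negative of the family, came with an SE of 0.55 and rested on that 1 library.

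Members without a substrate class included the second most negative change. Slc25a34, a poorly characterised carrier, was at 2.36 and 3.82 FPKM in control and 1.65 and 1.62 FPKM in mutant libraries (log2 change -0.61, SE 0.24, limma adjusted p = 0.710). The mutant values were nearly the same, and the control values were not. The change of Slc25a34 was -0.87 without control replicate 1 and -0.35 without control replicate 2. Slc25a47 was at 3.75 and 3.89 against 3.18 and 2.49 FPKM, with the closer values in the control group. Slc25a35, whose locus overlaps Rangrf, was higher, at 5.47 and 4.40 against 5.64 and 7.34 FPKM. Slc25a46, an outer membrane protein that acts in mitochondrial dynamics, was at 17.1 and 20.7 FPKM in control and 21.2 and 20.9 FPKM in mutant libraries. Slc25a53, whose locus on chromosome X overlaps that of Zcchc18, was at 10.4 FPKM in mutant replicate 1 and between 5.64 and 5.93 FPKM elsewhere. Slc25a43, Slc25a45 and Slc25a48 had overlapping groups and changes of -0.17, -0.10 and 0.08.

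The 7 members below the filter were Slc25a2, Slc25a18, Slc25a31, Slc25a41, Slc25a54, Ucp1 and Ucp3, and none exceeded 0.501 FPKM in any library. Slc25a2 is a second ornithine carrier, Slc25a31 a germ cell ADP/ATP carrier and Ucp3 the uncoupling protein of muscle. Slc25a44, a carrier of branched-chain amino acids, was listed at 21.7 and 20.3 FPKM in the controls and at 20.4 FPKM in mutant replicate 1. In mutant replicate 2 it was joined with its neighbour Pmf1 under a single name at 76.3 FPKM, so it was not tested. In the other tables Pmf1 alone was at 70.7, 63.5 and 62.6 FPKM.

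**Figure D2:**
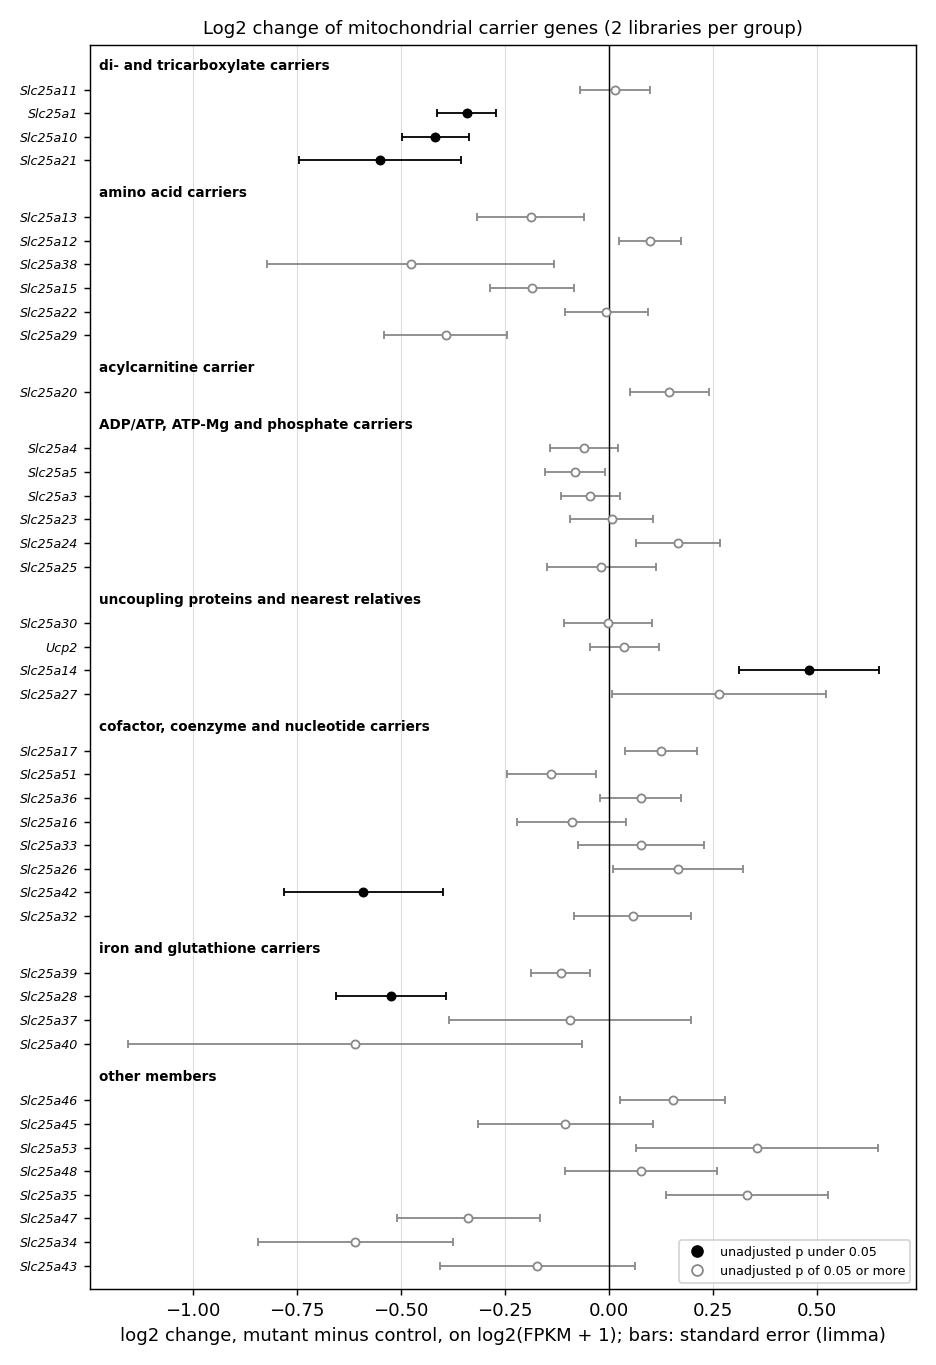
Log2 change (mutant minus control on log2(FPKM + 1)) with its limma standard error for tested carriers, in the order of the plot of levels. Black points had an unadjusted p under 0.05 (5 lower, 1 higher) and none passed after adjustment. The widest bar belongs to Slc25a40.

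The tables give an interval with each FPKM, whose level is not stated in the sources used here. For 2 of the 42 members, Slc25a1 and Slc25a10, both mutant intervals lay below both control intervals, and for 0 members did they lie above. The share of all genes with intervals apart was not computed, so this count has no background beside it. The lowest control bound of Slc25a10 was 27.7 FPKM, and its highest mutant bound was 25.7 FPKM. For Slc25a1 these were 63.6 and 62.1 FPKM. The intervals of Slc25a15 and Slc25a20 overlapped between groups. In 7 of the 199 member rows the FPKM lay outside its own interval. These were Slc25a4 and Slc25a5 in each library except control replicate 1, and Slc25a11 in mutant replicate 1. Slc25a4 in control replicate 2, for example, was listed at 208 FPKM with bounds of 162 and 188 FPKM. Over all named rows at 1 FPKM or more, the value lay above its upper bound in 4.82%, 4.75% and 5.27% of rows in control replicate 2 and mutant replicates 1 and 2, and in 0 of 13590 rows in control replicate 1. Whether this difference between tables bears on the fold changes was not tested.

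**Figure D3:**
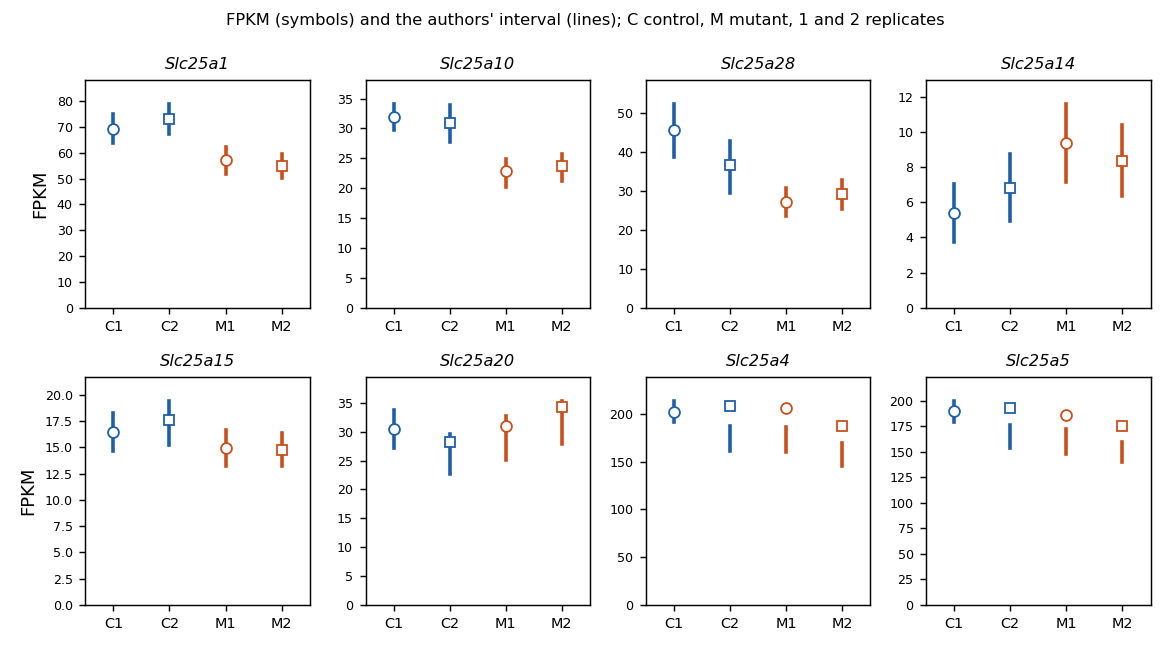
FPKM (symbols) and the deposited interval (lines) in control replicates 1 and 2 (C1, C2) and mutant replicates 1 and 2 (M1, M2) for 8 carriers, with axes from 0. The mutant intervals of Slc25a1 and Slc25a10 lie below the control intervals, and the symbols of Slc25a4 and Slc25a5 lie above their own lines in all libraries but C1.

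Some members are neighbours in the genome. Slc25a29 and Slc25a47 lie 15252 bases apart on chromosome 12, and both had lower values in the mutant libraries. Ucp3 and Ucp2 on chromosome 7 (6912 bases), Slc25a41 and Slc25a23 on chromosome 17 (2056 bases), and Slc25a54 and Slc25a24 on chromosome 3 (6566 bases) each join a member below the filter with an expressed one. Slc25a43 and Slc25a5 lie 18344 bases apart on chromosome X, where Slc25a5 averaged 191 FPKM in control libraries and Slc25a43 1.81 FPKM.

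The enzymes and partners of the carriers were read from 6 lists, chosen with earlier results of these data known. None of their genes passed the adjusted threshold. In the list of ornithine and arginine metabolism, 4 of 11 tested genes were lower at an unadjusted p under 0.05 (36.4%, beside 4.57% of all genes) and 0 higher (beside 2.67%), with a median of -0.08. They were Gatm, the first enzyme of creatine synthesis (60.2 and 56.7 FPKM in control against 28.1 and 31.4 in mutant libraries, limma adjusted p = 0.0846), the arginine-making enzymes Ass1 (111 and 103 against 63.2 and 63.8 FPKM, 0.0885) and Asl (56.1 and 56.2 against 38.4 and 39.6 FPKM, 0.141), and the proline-breakdown enzyme Aldh4a1 (79.5 and 67.2 against 55.6 and 50.8 FPKM, 0.441), whose locus overlaps Mir7020. The same 4 were the tested genes that were lower without overlap (36.4%, beside 17.1% of all genes), and 0 were higher without overlap (beside 22.7%). Odc1, which turns ornithine into putrescine and had the highest mean level of this list, was at 82.7 and 92.1 against 89.7 and 84.5 FPKM. Cps1 stayed below 1 FPKM, and Otc, the urea cycle enzyme that uses imported ornithine, was listed at 0 in all libraries.

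In the list of anaplerosis and shuttles, 11 of 14 genes had groups apart, all lower in the mutant libraries (78.6%, beside 17.1% of all genes), and 4 were lower at an unadjusted p under 0.05 (28.6%, beside 4.57%). Pck1, which commits oxaloacetate to glucose synthesis, was at 33.7 and 34.6 FPKM in control and 11.1 and 12.6 FPKM in mutant libraries, just outside the threshold (log2 change -1.46, SE 0.11, limma adjusted p = 0.0504). Pcx, the pyruvate carboxylase whose locus overlaps Lrfn4, was at 71.0 and 51.3 against 23.2 and 24.7 FPKM. Gpd1, of the glycerol phosphate shuttle, was at 54.8 and 47.6 against 27.1 and 26.5 FPKM. The mutant means of these 3 enzymes were from 34.6% to 52.3% of control. Me1, the cytosolic malic enzyme and the fourth gene with an unadjusted p under 0.05, was at 17.4 and 16.5 against 12.8 and 11.2 FPKM (70.6% of control, limma adjusted p = 0.453). The carriers Slc25a1 and Slc25a10, with the lowest p-values of the family, were at 78.6% and 74.1%. Slc25a21 was at 57.3% at low levels, Slc25a13 at 88.0%, Slc25a11 at 101% and Slc25a12 at 107%. The median of the list was -0.13. Mdh2, the mitochondrial malate dehydrogenase and the most abundant gene of the list, was at 162 and 156 against 152 and 146 FPKM, and citrate synthase (Cs) at 87.3 and 87.3 against 86.0 and 84.3 FPKM.

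In the list of carnitine and fatty acid oxidation, 0 of 12 tested genes had an unadjusted p under 0.05, with a median of -0.06 and changes between -0.16 and 0.06. Aldh9a1, of carnitine synthesis, was at 35 and 33.7 against 31.2 and 30.2 FPKM. Cpt2, the partner of Slc25a20 on the matrix side, was at 31.9 and 30.0 against 28.2 and 28.4 FPKM, and Acadm, a dehydrogenase of medium-chain acyl-CoA, at 90.3 and 97.5 against 82.9 and 86.5 FPKM. These 3 and Cpt1a (35.9 and 34.6 against 33.0 and 33.9 FPKM) had groups apart by a small margin. They were the 4 of 12 tested genes that were lower without overlap (33.3%, beside 17.1% of all genes), and 0 were higher without overlap (beside 22.7%). The most abundant gene of the list, the thiolase Acaa2, was at 85.0 and 100.9 against 98.2 and 94.1 FPKM, with overlap. In the list of ATP synthase and porins, 0 of 19 had an unadjusted p under 0.05 and the median was -0.03. The porin Vdac1 was at 134 and 137 against 125 and 122 FPKM, and the ATP synthase subunit Atp5d at 183 and 177 against 174 and 159 FPKM. Ckmt1, a mitochondrial creatine kinase whose locus overlaps Strc, was at 27.7 and 35.5 against 38.4 and 39.1 FPKM. Atp5e, the most abundant of the list, was at 233 and 267 against 247 and 242 FPKM.

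The list of carrier import holds genes of mitochondrial protein import at both membranes, not only those that insert carriers. In it 2 of 13 genes were lower (15.4%, beside 4.57% of all genes) and 1 higher (7.69%, beside 2.67%) at an unadjusted p under 0.05, with a median of 0.08. The small chaperone Timm13, whose locus overlaps Tmprss9, was at 95.6 and 96.3 FPKM in control and 60.8 and 59.7 FPKM in mutant libraries (limma adjusted p = 0.0846), and Timm10b was at 58.8 and 53.2 against 40.4 and 38.6 FPKM. The receptor Tomm22 was at 62.0 and 76.9 against 87.7 and 88.8 FPKM, and the channel Timm22 at 16.7 and 19.4 against 21.3 and 20.1 FPKM. Timm8b, the most abundant of these genes, had overlapping groups. In the list of haem and iron, 1 of 16 genes was lower at an unadjusted p under 0.05 (6.25%, near the 4.57% of all genes), with a median of 0.03. This gene was Cpox, at 33.8 and 33.4 against 29.5 and 28.5 FPKM (limma adjusted p = 0.688). The transferrin receptor Tfrc was at 29.0 and 24.6 against 30.1 and 30.1 FPKM. Glrx5, the most abundant, was at 107 and 111 against 104 and 96.4 FPKM.

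**Figure D4:**
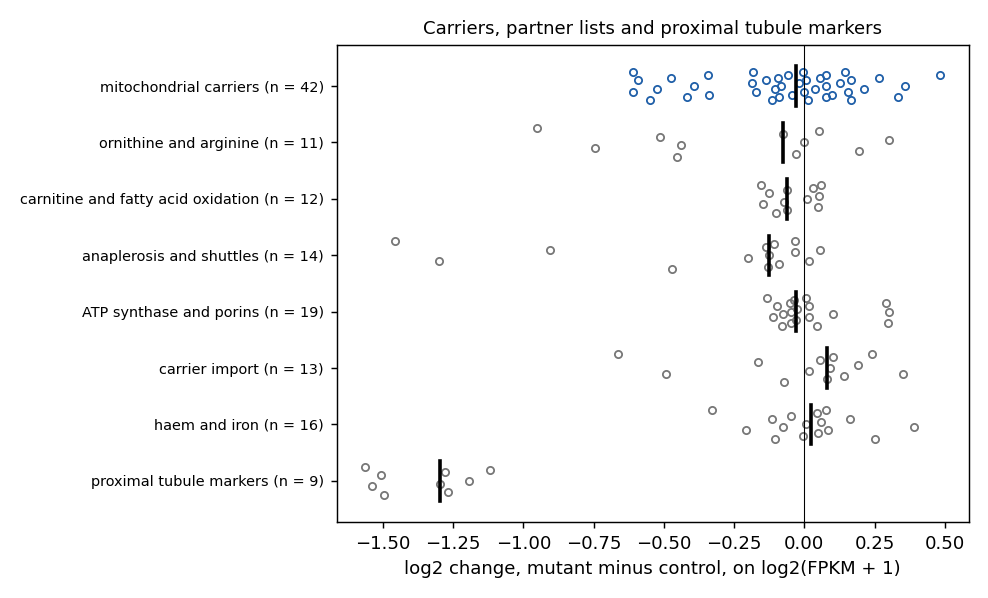
Log2 change (mutant minus control) of each tested gene of the carrier family, the 6 partner lists and the proximal tubule markers, with black bars at the medians. Most carriers, with a median of -0.03, lie near 0, and the 9 proximal tubule markers lie between -1.56 and -1.12.

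Markers of the proximal tubule moved with genotype beside these values. All 9 (Lrp2, Cubn, Slc34a1, Slc5a2, Slc22a6, Slc3a1, Slc7a9, Slc13a3 and Fbp1) were lower in both mutant libraries, beside 17.1% of all genes. Each was lower at an unadjusted p under 0.05, beside 4.57% of all genes, and none passed the adjusted threshold, with a median of -1.30. These markers were chosen with earlier results of these data known, and the count may reflect that choice. Their summed level was 346 to 436 FPKM in control and 147 to 156 FPKM in mutant libraries. Their part in the lower carrier values was not tested. The 3 markers of the loop of Henle summed to 203 to 209 FPKM in control and 199.6 to 212 FPKM in mutant libraries. Markers of the ureteric bud and collecting duct summed to 323 to 348 against 319 to 384 FPKM, of nephron progenitors to 81.2 to 113 against 94.7 to 105 FPKM, of stroma to 290.3 to 351 against 251.3 to 292 FPKM, of endothelium to 130.1 to 141 against 122 to 130 FPKM, and of neurons and glia to 3.25 to 3.38 against 3.97 to 4.19 FPKM. The 3 erythroid markers in the tables summed to 20.3 and 26.8 FPKM in control and 31.8 and 35.1 FPKM in mutant libraries, with Alas2 at 16.9 and 20.2 against 26.5 and 27.6 FPKM, and their part in Slc25a37 and Slc25a38 was not tested. The 6 macrophage and leukocyte markers summed to 100.2 to 113 FPKM in control and 102 to 120.4 FPKM in mutant libraries. Of 7 brown fat markers, 5 were under 1 FPKM in all libraries, Adipoq, Elovl3 and Plin1 among them at 0. The remaining Fabp4 and Prdm16 are also expressed by other cells. Of 6 skeletal muscle markers, none exceeded 2.24 FPKM, and all 4 adrenal cortex markers stayed below 1 FPKM.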

How the data were processed

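Poly(A)-selected RNA of whole kidneys was sequenced, 1 library per table. The FPKM values and their intervals were computed by the authors and deposited per gene row. The submitters' processing notes name build mm9 and Cufflinks 2.1.1, TopHat2 2.0.11, SAMtools 0.1.19 and Bowtie 1.0.0. Annotation, options and strand use are not stated there. Loci were assembled per library, so a gene's bounds and FPKM can move with the assembly.

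Rows were joined by symbol and FPKM summed over rows that share one. Of 22761 names in all 4 tables, 99 with a row not marked OK were left out. Genes at 1 FPKM or more in at least 2 libraries were tested with limma 3.58.1 (R 4.3.3) on log2(FPKM + 1), with a mean-variance trend, genotype as the single term and Benjamini-Hochberg adjustment over all 13287 genes, at a threshold of 0.05. The fit was also run on simulated data with planted log2 changes of 1 and 2 in either direction. These are larger than any carrier change, so that run does not bear on changes of the size seen here. Locus starts are given 1-based. Members, substrate classes, partner lists and markers were chosen with earlier results of these data known. Values in every library were given for Slc25a15, Slc25a20, members whose groups do not overlap, and the most abundant of each class. In each partner list they were given for up to 3 genes with the largest change whose groups do not overlap and for the most abundant gene, and further members and genes were added after their values were seen. Protein sequences were not used here, and 1 member and 1 partner gene are counted but not reported singly. Alternatives changed the pseudocount, filter, scaling, trend, replicate block, treatment of rows and status, threshold, and libraries.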

Additional observations from a re-analysis of the deposited data

How the results depend on the processing

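No carrier passed the adjusted threshold under any alternative run, including a threshold of 0.1 and each left-out library. Over all genes the count of 21 became 10 with no filter, 33 with FPKM of at least 5, 11 without the trend, 79 at a threshold of 0.1, and 0 to 14 with a library left out (0 without control replicate 1 and 0 without control replicate 2). The replicate block gave 6 genes past the threshold over all genes and 0 carriers higher at an unadjusted p under 0.05, against 1 without it (Slc25a14, whose adjusted p was 0.663 with the block), and 4 lower, against 5. The labels do not say that a number marks a shared litter, and the differences between replicates 1 and 2 correlated at 0.15 between the groups over genes. Xist and Ddx3y also separate the replicate numbers in both groups. Whether the numbers pair the libraries in other ways was not settled, and the fit without the block was kept. With no filter 0 carriers were higher at an unadjusted p under 0.05. With a library left out, 2 to 7 carriers were lower and 0 to 2 higher at an unadjusted p under 0.05. The family median was -0.0056 with FPKM of at least 5 and -0.0403 to -0.00082 with a library left out. In the list of anaplerosis and shuttles 1 gene, Pck1, passed with a pseudocount of 0.1, with FPKM of at least 5, with median centring, with the highest row only and with every status kept. Slc25a30 turned to 0.0047 with equal sums. With a library left out the change of Slc25a30 ranged from -0.12 to 0.11, that of Slc25a11 from -0.0609 to 0.0901 and that of Slc25a4 from -0.127 to 0.0078, and the other members given in every library by rule kept their sign in each alternative in which they were tested (Slc25a21, Slc25a34 and Slc25a47 were not tested with FPKM of at least 5). The change of Slc25a42 ranged from -0.79 to -0.39 and that of Slc25a29 from -0.53 to -0.26 with a library left out. The lone library of a group was then assumed to vary like the other group. Why values moved under an alternative was not tested. Without read totals, what depth limits could not be computed.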

Other observations

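The deposited interval of Slc25a42 was wide in the mutant tables. It ran from 3.82 to 1386 FPKM around a value of 5.56 in mutant replicate 1 and from 4.497 to 16.9 FPKM around 6.20 in mutant replicate 2, against 6.77 to 9.22 and 8.34 to 13.5 FPKM in control replicates 1 and 2. Such intervals were not particular to this gene or to the mutant tables. Upper bounds in mutant replicate 2 were 15407 FPKM for Slc25a23 (value 34.5) and 62.6 FPKM for Slc25a53 (value 5.65). In control replicate 2 that of Slc25a27 was 15.1 FPKM (value 2.17).

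Slc25a40 and Slc25a38 were both high in control replicate 1 alone. The interval of Slc25a40 there was 10.6 to 26.3 FPKM, above the value in each other library, and that of Slc25a38 was 31.6 to 51.4 FPKM, beside upper bounds of 22.6 to 30.1 FPKM elsewhere. The ratio of Slc25a39 to Slc25a40 was 6.55 in that library and 20.5, 20.03 and 14.4 in control replicate 2 and mutant replicates 1 and 2.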
